A study of Mus musculus with 2 samples.

Results

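Tcf7, Lef1, Klf2, S1pr1, Foxo1, Satb1 and Bcl11b are genes that maintain resting T cells and guide their circulation. They were picked by symbol as 7 of the 22216 gene rows of an RNA sequencing table of mouse spleen, and all 7 were found. The study compared NOD.L7 mice with NOD.g7 mice. Non-obese diabetic (NOD) mice are inbred and prone to autoimmune diabetes, and the series title names the compared mice as NOD.Lc7 and NOD. The labels do not say what L7 or g7 stand for, nor the age or sex of the animals, and they give no treatment. Each genotype was measured as 1 library from the pooled whole spleens of 3 mice, so the spread between mice is unknown and no test between genotypes is possible. All differences below are between these 2 libraries.

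A naive T cell has left the thymus and not yet met its antigen. TCF-1 (Tcf7), LEF-1 (Lef1), BCL11B and SATB1 keep the T cell programme in place, while FOXO1 holds the cell at rest and switches on homing and survival genes such as Ccr7 and Il7r. In mice, FOXO1 also sustains Klf2, and KLF2 in turn activates S1pr1, the receptor that reads sphingosine 1-phosphate (S1P) and lets T cells leave lymphoid organs. Signals through the antigen receptor lower KLF2 and S1PR1. None of these genes is exclusive to T cells: B cells also use Foxo1, Klf2 and S1pr1, and blood vessel cells use Klf2 and S1pr1.

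Klf2 and S1pr1, the genes of tissue egress, were lower in NOD.L7, while the T cell identity factors other than Lef1 were near equal. Klf2 was 1.32-fold lower in NOD.L7 and S1pr1 1.19-fold lower, followed by Lef1 at 1.14-fold lower. Foxo1, Satb1, Tcf7 and Bcl11b lay closer to equality. Levels are RPKM values (reads scaled to the length of the gene and the size of the library). The log2 ratio is log2((NOD.L7 RPKM + 1)/(NOD.g7 RPKM + 1)), so that a negative value means lower in NOD.L7. A gene was kept when it reached an RPKM of 1 in either library, which left 11141 genes and all 7 members.

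None of the 7 members had an absolute log2 ratio of 1 or more, a size that 0.709% of all kept genes reached. At a smaller size of 0.25, which is a 1.19-fold difference, Klf2 and S1pr1 were past it downward and no member upward, with S1pr1 just past that line. The same size was passed downward by 4.74% and upward by 8.82% of all kept genes. High genes scatter less: of the 3592 kept genes with a mean RPKM of at least 20, as all members have, 2.9% passed downward and 4.06% upward. The median log2 ratio was -0.08 over the 7 members and 0.02 over all kept genes.

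**Figure D1:**
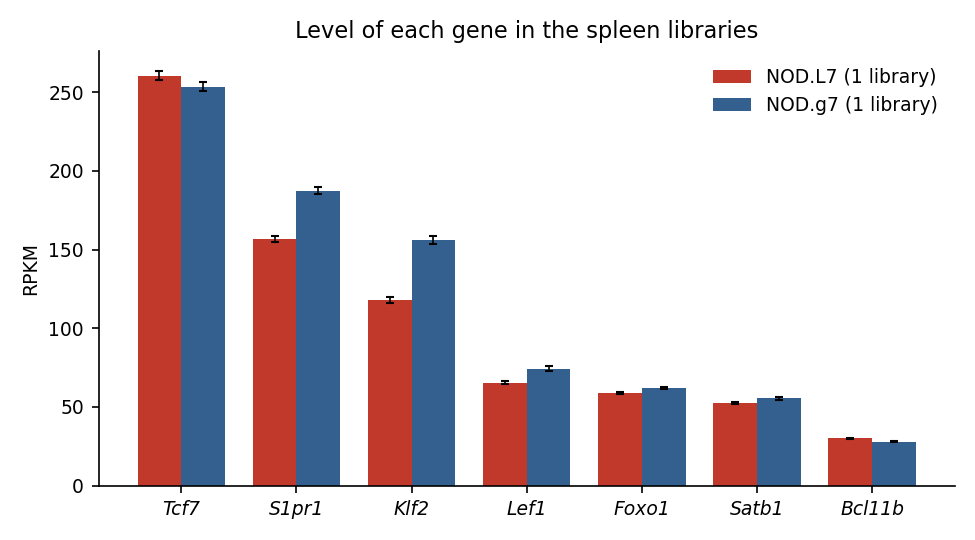
RPKM of each of the 7 genes in the NOD.L7 library (red) and the NOD.g7 library (blue); bars are single libraries and whiskers are 95% Poisson counting intervals, which leave out the variation between mice. Klf2 (118 in NOD.L7 against 156 in NOD.g7) and S1pr1 (157 in NOD.L7 against 187 in NOD.g7) show the widest gaps, while the Tcf7 bars are close (261 in NOD.L7 against 254 in NOD.g7).

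The order of the levels was the same in both libraries: Tcf7, S1pr1, Klf2, Lef1, Foxo1, Satb1 and Bcl11b from high to low. The counting intervals of neighbours in this order did not overlap within either library. Whether neighbours differ beyond the spread between mice cannot be told from 1 library each, and levels of different genes also rest on the authors' gene models, for which the sources used here give no details.

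Klf2 encodes a zinc finger factor of the Krüppel-like family that keeps T cells quiescent. The table places it on chromosome 8 at 74842961 to 74845553 (build mm9, as for all gene positions here). Klf2 had an RPKM of 118 in NOD.L7, against 156 in NOD.g7. The plain fold of NOD.L7 over NOD.g7 was 0.756, with a 95% counting interval of 0.738 to 0.775, and the log2 ratio was -0.40. Of the 3592 genes with a mean RPKM of at least 20, 33 (0.919%) had a smaller log2 ratio than Klf2. The interval rests on about 13168 fragments in NOD.L7 and 13148 in NOD.g7, as approximated from the depth and the transcript length, so counting error is small beside this difference, and the unmeasured variation between mice is the limit.

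S1pr1, the egress receptor, lies on chromosome 3 at 115413351 to 115417973. S1pr1 had an RPKM of 157 in NOD.L7, against 187 in NOD.g7. Its fold was 0.837 (counting interval 0.823 to 0.851) and its log2 ratio -0.26, and 100 of the same 3592 genes (2.78%) had a smaller ratio. The genes of this regulatory pair were thus both lower in NOD.L7 but by unequal amounts: the ratio of S1pr1 to Klf2 was 1.33 within NOD.L7 and 1.20 within NOD.g7.

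The start-site regions of Klf2 and Lef1 are shown because these were the lowest-ratio members with an entry in the RefSeq promoter table, which holds 6 of the 7 members. Both windows run from 250 to 31 bases before the RefSeq start site, on the plus strand, and hold no annotated UTR or coding base. They lie at chr8:72318812-72319031 and chr3:131110047-131110266 in GRCm38.p6, a build other than that of the expression table. Capitals mark GGGCGG and a match to the MEF2 motif in Klf2, and CACCC or its reverse complement in Lef1.
Klf2: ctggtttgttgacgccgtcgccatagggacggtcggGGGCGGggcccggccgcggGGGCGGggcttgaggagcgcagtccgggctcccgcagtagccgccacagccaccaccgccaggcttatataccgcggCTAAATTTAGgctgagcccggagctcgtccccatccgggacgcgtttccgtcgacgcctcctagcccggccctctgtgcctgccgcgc
Lef1: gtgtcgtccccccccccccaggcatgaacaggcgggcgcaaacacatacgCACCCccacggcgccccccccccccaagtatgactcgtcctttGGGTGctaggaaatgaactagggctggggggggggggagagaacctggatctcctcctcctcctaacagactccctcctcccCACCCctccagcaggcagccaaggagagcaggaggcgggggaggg

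GGGCGG, the GC box bound by Sp and Krüppel-like factors, occurred in the Klf2 window 2 times, and 28.5% of the 32851 windows of this length in the table hold it on either strand. Some members have several windows, and the first entry of each gene was shown. GGGCGG was in 7 of the 14 member windows and in 5 of the 6 members. Lef1 is among these through another window, as the one shown lacks it. The core motif of MEF2 factors, which reads the same on both strands, was found 1 time in the Klf2 window and in 138 windows in all (0.42%). CACCC, also bound by Krüppel-like factors, occurred 3 times in the Lef1 window over both strands and is common, in 47.8% of windows. The stretches in capitals do not overlap each other. GTAAACA, a FOXO-type sequence held by 2.81% of windows, was in none of the 14 windows of the 6 members, which says only that these letters are absent from those stretches. CTTTGAA, a TCF/LEF-type sequence held by 4.05% of windows, was in a window of Bcl11b alone among the members.

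Lef1, the partner of Tcf7 in binding the same HMG-box target sites, lies on chromosome 3 at 130813389 to 130926249. Lef1 had an RPKM of 65.4 in NOD.L7, against 74.4 in NOD.g7. The fold was 0.879 (counting interval 0.858 to 0.901) and the log2 ratio -0.18, short of the smaller size line. Of the 3592 genes at this level, 6.12% had a smaller ratio. An annotated antisense gene shares exon sequence with Lef1, and without a stated strand its reads cannot be told apart.

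Tcf7, on chromosome 11 at 52066106 to 52095752, had an RPKM of 261 in NOD.L7, against 254 in NOD.g7. This was the highest level of the 7 genes in both libraries, above all but 0.79% of kept genes in NOD.L7 and all but 0.844% in NOD.g7. Its fold was 1.03 (counting interval 1.01 to 1.04). The Tcf7 to Lef1 ratio was 3.98 within NOD.L7 and 3.41 within NOD.g7. Lef1 was thus the lower of the HMG-box pair in both libraries, and further below Tcf7 in NOD.L7.

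Foxo1, the forkhead factor that antigen receptor and growth signals keep out of the nucleus, lies on chromosome 3 at 52072259 to 52154031. Foxo1 had an RPKM of 58.9 in NOD.L7, against 62.2 in NOD.g7, a fold of 0.948 (counting interval 0.932 to 0.964). Satb1, a chromatin organiser that anchors gene loops, lies on chromosome 17 at 51875512 to 51972615. Satb1 had an RPKM of 52.6 in NOD.L7, against 55.4 in NOD.g7, a fold of 0.949 (counting interval 0.929 to 0.969). Their log2 ratios were -0.08 and -0.07, and 19.1% and 19.8% of genes at this level had smaller ones. Both genes share exon sequence with other annotated transcripts, including some on the opposite strand.

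Bcl11b, which commits early thymocytes to the T cell lineage and is little used by B cells, lies on chromosome 12 at 109148613 to 109241624. Bcl11b had an RPKM of 30.1 in NOD.L7, against 28.1 in NOD.g7. Its fold of 1.07 (counting interval 1.04 to 1.10) was the highest of the 7, and Bcl11b and Tcf7 were the members above equality. The difference is far under the smaller size line.

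**Figure D2:**
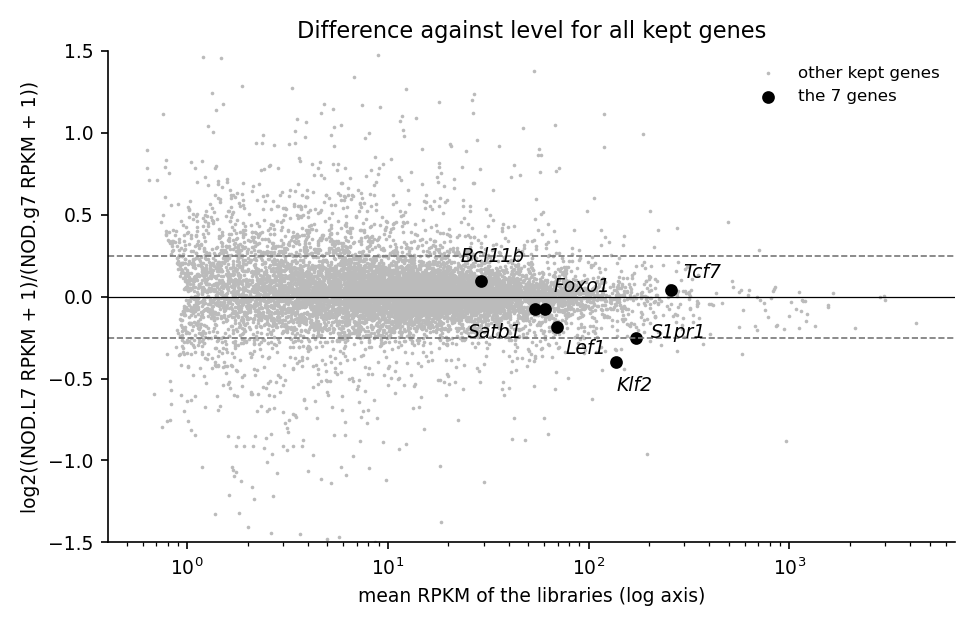
Log2 ratio of NOD.L7 over NOD.g7 (vertical axis, pseudocount 1) against the mean RPKM of the libraries (horizontal log axis) for 11141 kept genes (grey) with the 7 genes in black; dashed lines mark 0.25 in either direction, and 14 genes lie beyond the vertical range. Klf2 (-0.40) lies at the lower edge of the cloud at its level, S1pr1 (-0.26) on the dashed line, and Tcf7 (0.04) near 0.

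The genes were next set against general T cell genes. The pan-T list of 16 genes, all kept, had 2 members past 0.25 upward, 0 downward and a median log2 ratio of 0.04, against 0.02 for all kept genes. Those past it were Lat, an adaptor of receptor signalling, at 169 in NOD.L7 against 131 in NOD.g7, and Trat1, a receptor-associated adaptor, at 36.3 in NOD.L7 against 26.6 in NOD.g7. Per unit of Cd3e, the invariant receptor chain, Klf2 stood at 0.777 in NOD.L7 and 1.04 in NOD.g7. S1pr1 per Cd3e was 1.03 in NOD.L7 and 1.25 in NOD.g7, while Tcf7 per Cd3e was 1.72 in NOD.L7 and 1.69 in NOD.g7. Cd3e itself was near equal, at 152 in NOD.L7 and 150 in NOD.g7, so these ratios largely restate the differences of Klf2, S1pr1 and Tcf7. They are not levels per T cell, since B cells and blood vessel cells also use Klf2 and S1pr1.

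Relative to B cell genes the picture differed. Of 16 B cell genes, 8 were past 0.25 downward, 0 upward and 8 neither, with a median log2 ratio of -0.23. Not all were lower: 3 of the 16 were slightly higher in NOD.L7. Their summed RPKM was 2904 in NOD.L7 and 3504 in NOD.g7. Pax5, the factor that maintains B cell identity, was at 103 in NOD.L7 against 127 in NOD.g7, and Cd79b, a signalling chain of the B cell receptor, at 511 in NOD.L7 against 651 in NOD.g7. When log2 ratios were centred on the B cell list, a step chosen after the data were seen, Klf2 was at -0.17 and S1pr1 at -0.025, while Lef1 (0.047), Foxo1 (0.15) and Satb1 (0.16) turned to the side of NOD.L7. In whole spleen, fewer cells of a type and less RNA per cell cannot be told apart, and the part of B cells in the Klf2 and S1pr1 differences was not tested.

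The T cell co-receptors also diverged between the libraries. Cd8a per Cd3e was 0.209 in NOD.L7 and 0.358 in NOD.g7, while Cd4 per Cd3e was 0.899 in NOD.L7 and 0.706 in NOD.g7. The helper lineage genes Zbtb7b, which specifies CD4 cells, and Cd40lg, the ligand by which they help B cells, followed Cd4. Zbtb7b was at 39.7 in NOD.L7 against 32.9 in NOD.g7, and Cd40lg at 20.3 in NOD.L7 against 16.1 in NOD.g7. Runx3, the CD8 lineage factor that NK cells also use, was at 35.3 in NOD.L7 against 32.1 in NOD.g7. The part of the CD4 to CD8 balance in the levels of the 7 genes was not tested.

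A wider list of 24 naive and quiescence genes, none of them among the 7, was split. Of these, 4 were past 0.25 downward, 2 upward and 18 neither, with a median log2 ratio of -0.03. The lower ones included Foxp1, Id3 and Bach2. Foxp1, a forkhead factor of quiescence, was at 44.3 in NOD.L7 against 55.6 in NOD.g7, a fold of 0.798 (counting interval 0.782 to 0.814). Id3, an inhibitor of E proteins, was at 38.7 in NOD.L7 against 47.4 in NOD.g7, and Bach2, a repressor of effector genes, at 16.8 in NOD.L7 against 20.7 in NOD.g7. B cells express Foxp1 and Bach2 as well. The part of B cells in the differences of this list, including those of Id3 and Ccr7, was not tested.

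Ccr7, the chemokine receptor that brings naive cells into lymphoid tissue, was at 126 in NOD.L7 against 150 in NOD.g7, with a log2 ratio of -0.24 that stopped just short of the line. Other naive cell genes lay on the opposite side. Igfbp4, an insulin-like growth factor binding protein, was at 128 in NOD.L7 against 102 in NOD.g7, and Tob1, an inhibitor of proliferation, at 16.8 in NOD.L7 against 12.9 in NOD.g7. Il7r, the survival receptor that FOXO1 drives, was almost equal at 57.6 in NOD.L7 and 57.8 in NOD.g7. Klf2, S1pr1 and Ccr7 were thus lower in NOD.L7, while Dapl1 (log2 ratio 0.24) and Igfbp4 were higher and Il7r was near equal. Of the wider list of 24 genes, 14 were lower and 10 higher in NOD.L7.

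**Figure D3:**
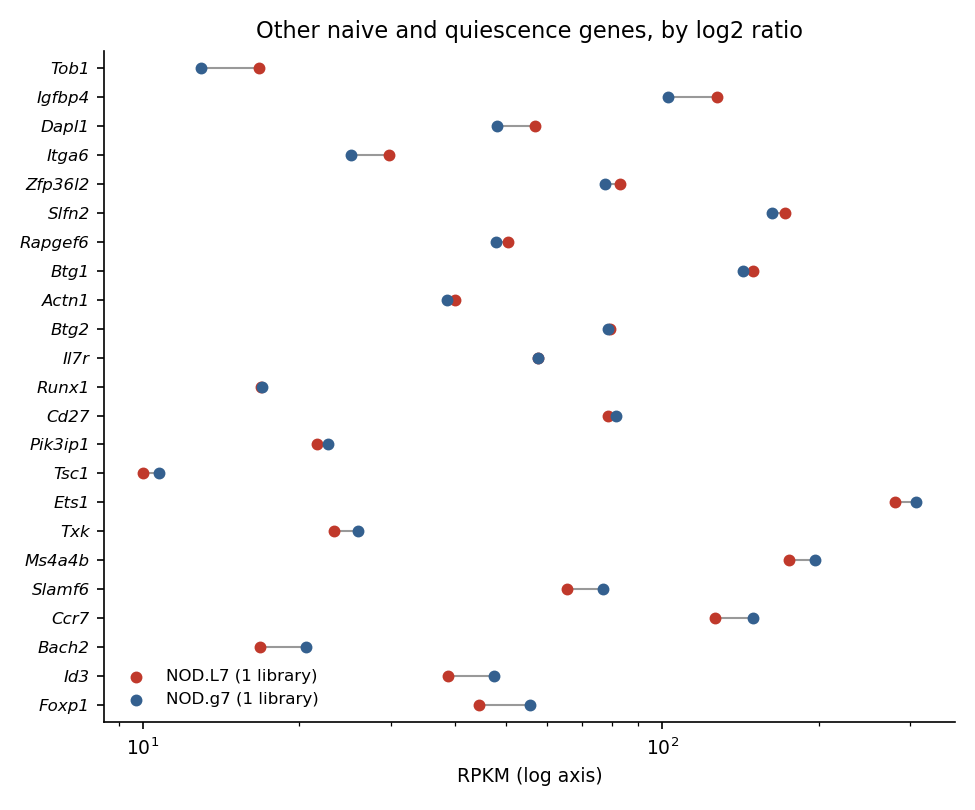
RPKM (log axis) of 23 of the 24 other naive and quiescence genes in NOD.L7 (red) and NOD.g7 (blue), 1 library each, ordered from the highest log2 ratio at the top (Tob1, 0.35) to the lowest at the bottom (Foxp1, -0.32). The points for Il7r, Btg2 and Runx1 nearly coincide, while Foxp1 (44.3 in NOD.L7 against 55.6 in NOD.g7) and Ccr7 (126 in NOD.L7 against 150 in NOD.g7) stand to the left in NOD.L7.

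Genes around S1pr1 were examined next, since S1P is read by a family of receptors and shaped by enzymes that make and destroy it. Of 17 genes, 15 were kept, with 4 past 0.25 downward, 1 upward and a median of -0.04. S1pr5, an egress receptor of NK cells, was at 4.11 in NOD.L7 against 8.18 in NOD.g7, a fold of 0.503 (counting interval 0.453 to 0.557). S1pr4, a lymphocyte receptor, was at 47.3 in NOD.L7 against 57.5 in NOD.g7. S1pr2, which confines germinal centre B cells, went the other way, at 6.18 in NOD.L7 against 3.67 in NOD.g7, a fold of 1.68 (counting interval 1.56 to 1.81). S1pr3 was at 18.2 in NOD.L7 and 15.7 in NOD.g7.

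The enzymes and transporters of S1P were mostly close. The S1P phosphatase gene Sgpp1 was at 19.7 in NOD.L7 against 24.3 in NOD.g7, and the lipid phosphatase gene Ppap2c at 1.04 in NOD.L7 against 1.97 in NOD.g7. Sgpl1, the lyase that degrades S1P, was at 30.2 in NOD.L7 and 32.2 in NOD.g7, and the exporter gene Spns2 at 6.04 in NOD.L7 and 7.20 in NOD.g7. Cd69, whose protein removes S1PR1 from the surface of activated lymphocytes, was at 27.9 in NOD.L7 and 29.0 in NOD.g7. The NK list was lower in NOD.L7 in all 10 of its genes (median -0.76, summed RPKM 188 in NOD.L7 against 328 in NOD.g7), in the same direction as S1pr5. Its part in the S1pr5 difference was not tested.

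Of 9 kept homing ligands and receptors out of 14 listed, 1 was past 0.25 downward and 2 upward, with a median of 0.03. Cxcr4, the receptor for the retention chemokine CXCL12, was at 96.9 in NOD.L7 against 73.0 in NOD.g7, a fold of 1.33 (counting interval 1.29 to 1.37). The adhesion ligand gene Icam1 was at 38.7 in NOD.L7 against 30.8 in NOD.g7. Cxcr5, the follicle homing receptor, was at 120 in NOD.L7 and 131 in NOD.g7. Ccl21a, 1 of the 14 listed, was not found among the gene rows under that symbol.

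TCF-1 and LEF-1 pair with β-catenin or with Groucho repressors (Tle genes). Of 17 such partners and Wnt genes 14 were kept, none past 0.25 in either direction, with a median of 0.05. Ctnnb1, which encodes β-catenin, was at 81.5 in NOD.L7 and 78.1 in NOD.g7, and Axin2, a standard target of this pathway, at 7.01 in NOD.L7 and 6.69 in NOD.g7. The corepressor gene Aes, the highest of the list, was at 227 in NOD.L7 and 232 in NOD.g7. The repressor gene Tle4 was at 17.0 in NOD.L7 and 19.1 in NOD.g7. The sister factors were scarce, with Tcf7l2 at 1.22 in NOD.L7 and 1.03 in NOD.g7, and Tcf7l1 at 0.328 in NOD.L7 and 0.384 in NOD.g7.

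Of 21 regulators and targets of FOXO factors 19 were kept, with 1 past 0.25 downward, Gadd45a upward and a median of 0.03. Gadd45a, a stress gene, was at 11.6 in NOD.L7 against 8.75 in NOD.g7. Of the relatives of Foxo1, Foxo3 was at 17.9 in NOD.L7 against 17.3 in NOD.g7 and Foxo4 at 13.5 in NOD.L7 against 14.5 in NOD.g7. The cell cycle inhibitor gene Cdkn1b was at 58.4 in NOD.L7 and 57.1 in NOD.g7. The kept genes of this list lay on both sides of 0, 12 higher and 7 lower in NOD.L7.

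In the Krüppel-like family without Klf2, 12 of 14 genes were kept, 2 past 0.25 downward and 0 upward, with a median of -0.07. Klf1, the erythroid member, was at 2.37 in NOD.L7 against 5.19 in NOD.g7. The erythroid list, which includes Klf1 itself, was lower in all 10 of its genes (median -1.29). Klf12 was at 1.85 in NOD.L7 against 2.48 in NOD.g7. Klf3, a repressor that lymphocytes express, was at 49.7 in NOD.L7 and 58.6 in NOD.g7, a log2 ratio of -0.23. Klf13 was at 59.9 in NOD.L7 and 62.3 in NOD.g7, Klf6 at 35.7 in NOD.L7 and 32.7 in NOD.g7, Klf7 at 7.97 in NOD.L7 and 7.82 in NOD.g7 and Klf4 at 5.73 in NOD.L7 and 6.52 in NOD.g7. Klf2 had a higher level than any of these in both libraries.

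BCL11B and SATB1 act with the NuRD complex, which joins chromatin remodelling to histone deacetylation. Of 15 relatives and NuRD genes 14 were kept and none passed 0.25 in either direction, with a median of 0.04. Bcl11a, the B cell counterpart of Bcl11b, was at 29.8 in NOD.L7 and 33.0 in NOD.g7. Chd4, the remodelling ATPase, was at 120 in NOD.L7 and 116 in NOD.g7. Chd3, its paralogue, was at 98.1 in NOD.L7 and 83.3 in NOD.g7.

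Loss of the naive state is marked by effector and memory genes, and these were divided. Of 22 genes, 5 were past 0.25 upward and 5 downward, with a median of 0.08. The higher ones included the inhibitory receptor genes Pdcd1, at 8.30 in NOD.L7 against 5.09 in NOD.g7, and Tigit, at 8.12 in NOD.L7 against 5.03 in NOD.g7. Icos, a costimulatory receptor of follicular helper and regulatory cells, was at 11.2 in NOD.L7 against 8.22 in NOD.g7, and Cd44, an adhesion receptor of memory cells, at 44.3 in NOD.L7 against 34.8 in NOD.g7. The lower ones were Eomes, Klrg1, Ccl5, Cx3cr1 and Tbx21, such as Ccl5 at 81.8 in NOD.L7 against 127 in NOD.g7. NK cells express all 5 of the lower genes, and the NK list, which also holds Eomes, was lower in the same library. The part of NK cells, the CD4 to CD8 balance, regulatory T cells and myeloid cells in the higher and lower genes was not tested. All 10 regulatory T cell genes were higher, 4 of them past 0.25, with Gpr83 at 7.48 in NOD.L7 against 4.24 in NOD.g7.

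**Figure D4:**
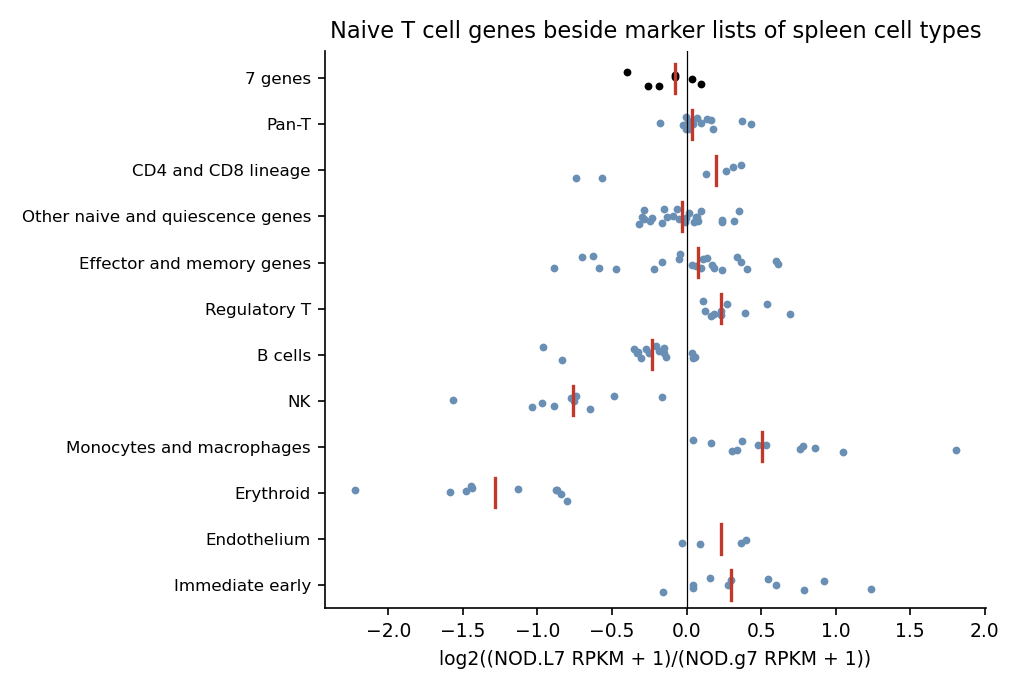
Log2 ratios of NOD.L7 over NOD.g7 (pseudocount 1) for the 7 genes (black) and the kept genes of 11 marker lists (blue); each dot is a gene, red bars are medians, and vertical scatter within a row has no meaning. The median of the 7 genes (-0.08) lies between the medians of the pan-T list (0.04) and the B cell list (-0.23). The genes themselves spread wider, with Klf2 (-0.40) and S1pr1 (-0.26) below the B cell median and Bcl11b (0.10) above the pan-T median. The NK (-0.76) and erythroid (-1.29) lists lie furthest to the left.

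Markers of other cells moved in the same libraries. Monocyte and macrophage genes were higher in all 12 cases, with a median of 0.51 and a summed RPKM of 1319 in NOD.L7 against 1072 in NOD.g7. Immediate early genes, which respond to stimulation and to handling of tissue, were past 0.25 upward in 7 of 11 cases and downward in 0, with a median of 0.30. Of 10 blood vessel markers 4 were kept, with 2 past 0.25 upward, 0 downward and a median of 0.23, and the summed RPKM of all 10 was 76.5 in NOD.L7 and 76.7 in NOD.g7. Plvap, a protein of vessel wall diaphragms, was at 1.14 in NOD.L7 against 0.624 in NOD.g7, and Esam, an adhesion molecule of vessels and platelets, at 1.76 in NOD.L7 against 1.14 in NOD.g7. Cdh5, the cadherin of vessel cell junctions, was at 1.09 in NOD.L7 and 0.957 in NOD.g7. Most of the sum came from Pecam1, which leukocytes share with vessels, at 71.2 in NOD.L7 and 72.7 in NOD.g7. The other 6 markers did not reach an RPKM of 1, and over all 10 the median was 0.03. The part of the myeloid, vessel and immediate early shifts in the levels of the 7 genes was not tested.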

How the data were processed

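Whole spleen RNA was extracted on RNeasy columns and made into TruSeq RNA libraries, per the labels' protocols. The authors deposited 1 table of RPKM values. Per the submitters' processing notes, the tools were CASAVA 1.8.2 and SAMtools 0.1.18 and the build was mm9. Alignment settings, gene models, strand and the handling of multiply mapping reads: not given in the sources used here. The table heads its columns NOD.LC7, matched here to the NOD.L7 sample, and NOD, matched to the NOD.g7 sample.

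Depth was worked out from RPKM values of single-exon genes, of which 754 matched GENCODE M21 in length. Only low, non-zero values of genes under 2500 bases were used. At the depth found, all 161 values used in NOD.L7 and all 144 in NOD.g7 were whole numbers of bases, within 0.15. The depth came to 12.1 Gb in NOD.L7 and 9.13 Gb in NOD.g7. Fragments were approximated from the longest GENCODE transcript and an assumed 200 bases per fragment. The 95% intervals of folds are exact binomial (Clopper-Pearson) and those of levels exact Poisson, and both cover counting error only.

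With 1 library per group no test was run. Named genes were the 7 members, their family relatives, and up to 6 genes of each of 17 lists past an absolute log2 ratio of 0.25 (or the 2 highest in level where fewer than 2 passed). Some genes that the rule names are given as counts and medians only, and some are not reported here. Genes named outside it, such as Il7r, Ccr7, Cd69, Dapl1 and Cdh5, were added after their values were seen, as were the ratios within a library. The members and lists were chosen with earlier results of these data known. Alternatives were pseudocounts of 0.1 and 0.5, no filter or a filter at an RPKM of 5, and centring on the median of all kept genes, on a trimmed mean of log ratios (TMM, leaving out 30% of ratios and 5% of levels at each end) or on the pan-T list. Centring on the B cell list was added after the data were seen. The calculations were tested on simulated data and ran in Python 3.11.15 with pandas 2.3.3 and scipy 1.17.1. The simulation drew Poisson counts with the same assumed fragment size and transcript lengths. It could therefore not check those assumptions or the variation between mice.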

Additional observations from a re-analysis of the deposited data

How the results depend on the processing

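No paired analysis was possible because there is 1 library for each genotype, and no replicate could be left out. Klf2 and S1pr1 were the 2 members past 0.25 under every planned setting of pseudocount, filter and scaling. A filter cannot change the ratio of a gene, and a smaller pseudocount can only widen it. The planned centrings all lowered both genes, so no planned setting could pull S1pr1 (-0.26) back toward equality. Centring all kept genes moved log2 ratios by 0.02, as did the TMM factor. Centring on the pan-T list gave -0.44 for Klf2, -0.29 for S1pr1, -0.22 for Lef1, -0.12 for Foxo1, -0.11 for Satb1, 0.00088 for Tcf7 and 0.057 for Bcl11b, with a median of -0.12 over the 7 genes. Centring on the B cell list, chosen after seeing the data, raised every ratio by 0.23 by construction. It gave -0.17 for Klf2, -0.025 for S1pr1, 0.047 for Lef1, 0.15 for Foxo1, 0.16 for Satb1, 0.27 for Tcf7 and 0.33 for Bcl11b, with a median of 0.15. There the 2 members past 0.25 were Tcf7 and Bcl11b, both upward, and Lef1, Foxo1 and Satb1 lay above 0. Of the 17 lists, 4 had a median past 0.25 as deposited and 13 after that centring. Depth does not limit the members, whose counting intervals are narrow. The variation between mice was not measured.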

Other observations

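Genes of antigen receptor rearrangement, which immature lymphocytes use and which FOXO1 drives in developing B cells, were under the filter and are named here after their values were seen. Rag1 was at an RPKM of 0.0174 in NOD.L7 against 0.375 in NOD.g7, a fold of 0.0464 (95% counting interval 0.0184 to 0.0996). Rag2 was at 0.0112 in NOD.L7 against 0.0904 in NOD.g7. Both lay at levels of few fragments in NOD.L7. The labels do not describe how the spleens were dissected, and the source of these differences was not tested.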
